A study of Mus musculus with 24 samples.

Results

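Early G1 was examined as a window of 2 arrays, taken 4 h and 6 h after starved mouse embryonic fibroblasts (MEF) were given serum, and set against the 2 arrays of starved cells at 0 h, that is 4 of the 24 arrays of the experiment. MEF are connective tissue cells grown from mouse embryos, here of early passage. Cells of the 4-6 h window had been held for 48 h in medium low in foetal calf serum and then moved to medium with 10% serum for 4 or 6 h. Cells at 0 h had had the same 48 h of starvation and no new serum. The low serum was 0.5% by the sample protocol and the methods and 0.1% by the design text. A further 3 pairs of arrays served for comparison, which were those at 0.5 and 1 h and at 8 and 10 h after serum and those of unsynchronised cells kept in 10% serum. The members were chosen by the time in their labels, not by any measured value, though earlier results of these data were known. The sources used here name no strain, sex or embryonic stage. Since nothing states that duplicates came from cultures of their own, the p-values reflect the scatter among these arrays, and that scatter may be technical.

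Cells deprived of serum leave the cycle for a resting state called quiescence, or G0. Serum growth factors act through receptor tyrosine kinases, the Ras and MAP kinase cascade and PI3 kinase, and first switch on immediate early genes such as Fos and Egr1, which need no new protein. Their products switch on delayed early genes, and over the following hours of G1 the cell builds ribosomes, nucleotides and proteins until cyclin D and its kinases release E2F from the retinoblastoma proteins. PI3 kinase and Akt also keep FoxO factors, which drive genes of resting cells, out of the nucleus. Genes of DNA synthesis and mitosis are held down by E2F repressor and DREAM complexes until later in the cycle.

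The assay was the Affymetrix Mouse Gene ST array, which reads RNA through short probes, and values below are linear RMA intensities. Signals under 20 are dim, and a fold change that starts or ends there depends on the background. Of 41345 probe sets, 9967 genes reached 20 in at least 2 arrays and were tested with limma, each by its brightest probe set. The 4 h array stood apart. Its median log2 intensity over the tested genes was 6.31, against 6.43 in the 6 h array and 6.41 to 6.43 in the 0 h arrays, and it held the lowest level of 1790 of the 9967 genes over the 18 times (the 26 h array, with a median of 6.21, held that of 2223). The 0 h duplicates were also less alike than others, with an SD of 0.286 between them on the log2 scale (Pearson's r 0.970 across genes) against 0.156 to 0.199 in the other 4 duplicated groups. Counts that move by over 1.5 times when 1 array is left out are therefore given with and without it. The number of arrays limits the precision.

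The cells carried the markers of fibroblasts. All 14 fibroblast markers were measured, with Vim, the intermediate filament protein vimentin, at 3928 and 4168 in the 4 h and 6 h arrays, against 3505 and 3906 in the 0 h arrays, and Col1a1, a collagen I chain, at 2654 and 2978 at 4 and 6 h, against 2986 and 3122 at 0 h. Twist1, Lum and Pdgfrb were the 3 of them that fell at 4-6 h, with log2 changes of -1.30, -0.49 and -0.45. Of 13 macrophage and leukocyte markers, 12 were measured, and their summed intensity was 2146 and 2179 at 4 and 6 h, against 2689 and 1972 at 0 h, without a separation of the groups. Lyz2, the largest of them, was at 986 and 798 at 4 and 6 h, against 1143 and 814 at 0 h. Of 7 endothelial markers, Pecam1 and Vwf stayed between 4.89 and 5.69 in all 4 arrays, Cdh5 was 11.7 and 17.9 at 4 and 6 h, against 6.90 and 5.72 at 0 h, and of the 2 tested Kdr was higher, 31.1 and 53.4 at 4 and 6 h, against 15 and 11.4 at 0 h, and Tek lower, 9.10 and 6.85 at 4 and 6 h, against 25.2 and 30.2 at 0 h. Epithelial Epcam stayed between 3.80 and 4.29. Summed smooth and skeletal muscle markers were 659 and 590.1 at 4 and 6 h, against 223 and 235 at 0 h, nearly all of it from Cnn1, a serum-responsive actin-binding protein described with the actin genes. Epithelial markers summed to 88.5 and 89.0 at 4 and 6 h, against 59.9 and 56.5 at 0 h, and cartilage markers to 585 and 400.0 at 4 and 6 h, against 277 and 218 at 0 h, with 1 measured gene in each list, and the part of any of these markers in the results was not tested. In bulk RNA, fewer cells of a type and less RNA per cell cannot be told apart.

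Many genes had changed in level by 4-6 h, more of them downwards than upwards, though the downward excess was smaller with centred arrays. Relative to 0 h, 1514 of 9967 genes (15.2%) were higher at 4-6 h and 2279 (22.9%) lower, 38.1% in all (limma, adjusted p under 0.05). At least a 2-fold change was seen in 478 of the higher and 654 of the lower genes (4.8% and 6.56% of all tested), and at least an 8-fold change in 26 and 10. The median change over all genes was -0.07 on the log2 scale. Both arrays of the window lay above both 0 h arrays in 1480 of the 1514 higher genes, and below both in 2189 of the 2279 lower ones, compared with 2467 and 3335 of all genes tested. With only the 4 arrays fitted, in place of a spread taken from all 5 duplicated groups, 521 genes were higher and 696 lower. In that fit 37 of the 162 named genes lost their call. With each array centred on its median 1756 genes were higher and 2087 lower, and with renewed quantile normalization 1778 and 1961. The part of the low 4 h array in the downward excess was not tested. Without the 4 h array 1231 genes were higher and 1421 lower, and without the 6 h array 1201 and 2196. Of the higher genes, 356 had their highest level of all 18 times at 4 h and 324 at 6 h, compared with 694 and 805 of all genes tested. Of the lower genes 907 had their lowest at 4 h and 323 at 6 h, compared with 1790 and 644 of all. Genes called by their level in the window are more apt to be extreme there.

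**Figure D1:**
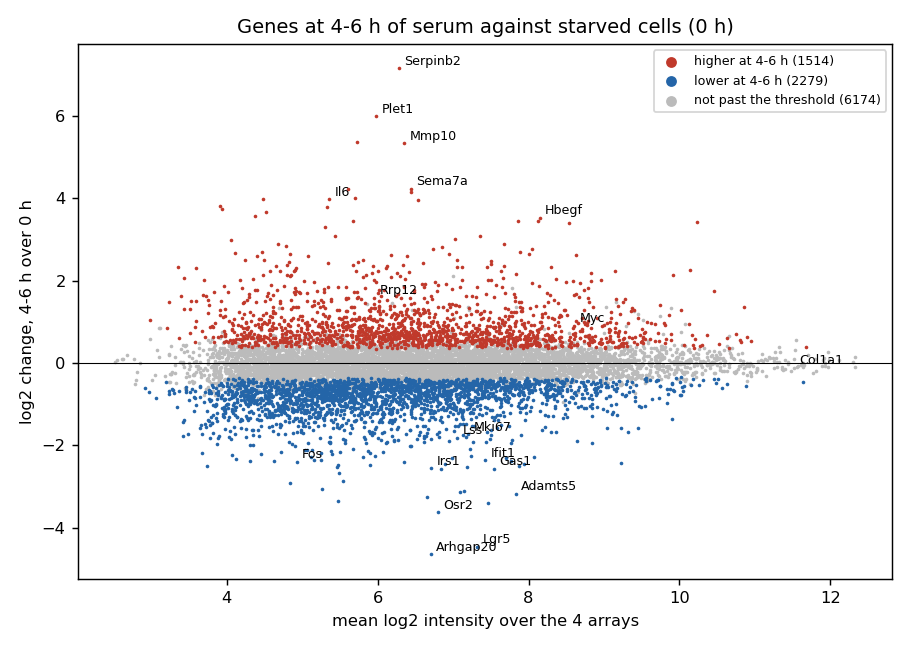
Change at 4-6 h against 0 h for the 9967 genes tested. The x axis is the mean log2 intensity over the 4 arrays and the y axis the log2 change, with the 1514 higher genes in red, the 2279 lower genes in blue and the rest in grey. The largest changes were rises from dim levels, led by Serpinb2, and falls of bright genes such as Lgr5.

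The gene with the largest rise was Serpinb2, the urokinase inhibitor PAI-2. It was 807 and 1076 in the 4 h and 6 h arrays, against 6.32 and 6.70 in the 0 h arrays, a difference of 143-fold (log2 change 7.16, SE 0.34, adjusted p = 4.1e-07). Since the 0 h arrays lay under 20, the change was 5.54 when intensities below 20 were set to 20. Its level was 3.74 at 0.5 h, 13.6 at 1 h, 179 at 2 h and 1205 at 8 h, the highest of the course, so the rise had begun by 2 h. The log2 change was 0.42 from 4 h to 6 h, and -0.31 for the window against 8-10 h. Neither passed the threshold, so a further rise within or after the window was not shown.

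The 30 gene lists used here were written with earlier results of these data known, so their counts and ranks are descriptions. Against 0 h, such counts are to be read beside the 15.2% higher and 22.9% lower of all genes tested. Serpinb2 belongs to the delayed early genes, a list of feedback regulators, ligands and matrix-degrading enzymes that follow the immediate early wave. Of its 43 measured members 32 rose and 1 fell at 4-6 h, with a median log2 change of 1.58 against -0.07 over all genes tested. Without the second 0 h array 2 were lower. Many are targets of AP-1, the Fos and Jun dimer, and the AP-1 letters TGANTCA, searched on both strands from 250 bases before to 50 after the RefSeq gene starts, were in 9 of 40 promoters of the list (22.5%), compared with 7.81% of all 32851 promoters of the same length. Stretches of 80 bases are shown for Serpinb2 (chr1:107511292-107511371, plus strand) and Plaur (chr7:24462377-24462456, plus strand) on GRCm38.p6, the members with the largest changes that hold the letters before the start. Capitals mark the match, which is a description of letters and not evidence of binding.
Serpinb2: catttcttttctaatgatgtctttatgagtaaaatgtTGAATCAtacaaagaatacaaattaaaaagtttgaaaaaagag
Plaur: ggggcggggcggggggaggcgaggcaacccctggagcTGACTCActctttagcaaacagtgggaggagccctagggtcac

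Below Serpinb2 in this list came several ligands and receptors, named here by their size of change. Hbegf, an EGF receptor ligand, was 949.9 and 980.0 in the 4 h and 6 h arrays, against 74.5 and 93.6 in the 0 h arrays (log2 change 3.53, SE 0.15, adjusted p = 1.8e-07), and its level of 1808 at 2 h was the highest of the course. Ereg, epiregulin, a further EGF receptor ligand, was 819.6 and 731 at 4 and 6 h, against 78.8 and 62.5 at 0 h (log2 change 3.46, SE 0.16, adjusted p = 4.1e-07). Plaur, the urokinase receptor, was 895 and 960.3 at 4 and 6 h, against 113 and 63.6 at 0 h (log2 change 3.45, SE 0.24, adjusted p = 3.7e-06). In each of these 3 genes the arrays of the window lay close together and far above both 0 h arrays. Phosphatases that switch off MAP kinases rose as well, by 2.70 for Dusp4, 2.52 for Dusp5 and 1.61 for Dusp6. The member that fell was Spry1, a feedback inhibitor of receptor tyrosine kinases, at -1.91.

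The 15 largest rises held genes of several kinds. Mmp10, the matrix metalloproteinase stromelysin-2, was 418 and 648 in the 4 h and 6 h arrays, against 16.0 and 10.4 in the 0 h arrays (log2 change 5.34, SE 0.28, adjusted p = 6.8e-07). Mmp9, gelatinase B, was 244 and 553 at 4 and 6 h, against 24.2 and 17.4 at 0 h (log2 change 4.16, SE 0.20, adjusted p = 4.1e-07), with the 6 h array above the 4 h array. Itga2, the collagen-binding integrin chain, was 166 and 267 at 4 and 6 h, against 12.5 and 10.1 at 0 h (log2 change 4.23, SE 0.30, adjusted p = 4.5e-06). Sema7a, a membrane-anchored semaphorin that signals through integrins, was even within both groups, 384 and 369.9 at 4 and 6 h, against 21.1 and 19.2 at 0 h (log2 change 4.23, SE 0.13, adjusted p = 6.7e-08), and 4 h was its highest time. Plet1, U90926, Aldh1a3 (an enzyme of retinoic acid synthesis), Sprr1a, Gjb2 (the gap junction protein connexin 26), Nptx1, Il1a (the cytokine interleukin 1 alpha) and Kcnk10 (a potassium channel) completed the group beside the cytokines below, with log2 changes of 6.00, 5.37, 4.02, 3.98, 3.96, 3.78, 3.75 and 3.67. All 8 had both window arrays above both 0 h arrays, which the rule for naming the 15 required. Of the 15 largest rises, Sema7a, Mmp9 and Gjb2 were the ones with at least one 0 h array at 20 or more, and with intensities below 20 set to 20 the changes were 4.66 for Plet1, 4.09 for U90926, 4.70 for Mmp10, 3.40 for Itga2, 3.40 for Aldh1a3, 2.90 for Nptx1, 2.15 for Sprr1a, 2.04 for Kcnk10 and 1.5 for Il1a.

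**Figure D2:**
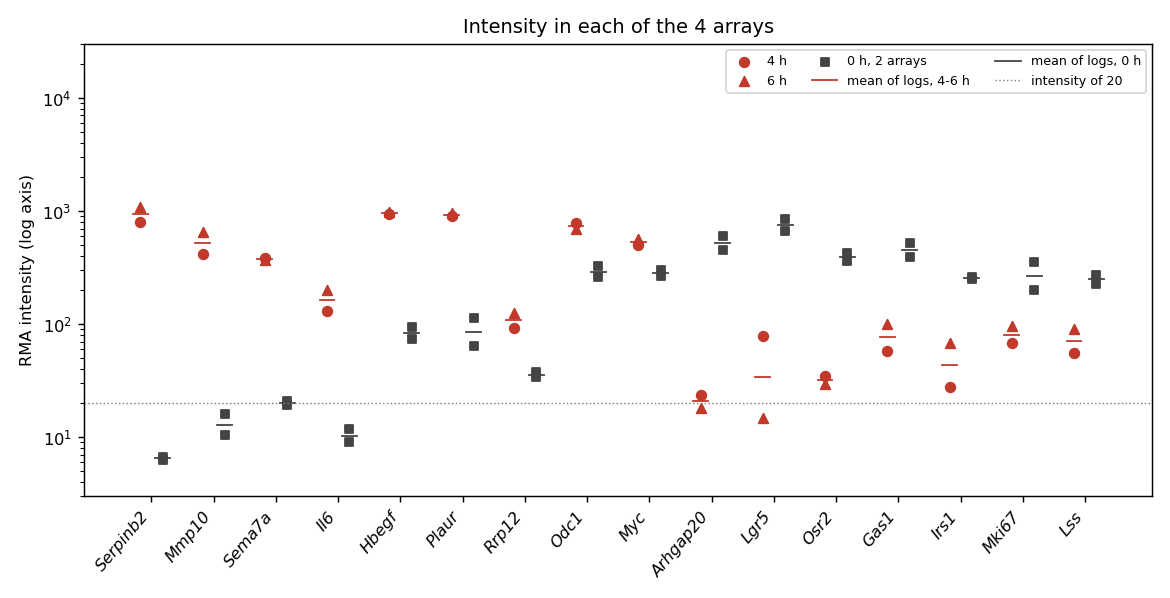
Intensity of 16 genes in each of the 4 arrays, on a log axis. Red circles and triangles are the 4 h and 6 h arrays, grey squares the 2 arrays at 0 h, short lines the means of the log values, and the dotted line an intensity of 20. The groups do not overlap in any of the 16, and the 4 h and 6 h arrays of Lgr5 lie far apart.

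Chemokines and cytokines, the immune signals that fibroblasts secrete, with feedback inhibitors of NF-kappaB, were a smaller group that rose. Of 18 measured members 15 rose, with a median log2 change of 1.57, and all 15 had both window arrays above both 0 h arrays. The AP-1 letters were in 3 of 14 promoters of the list (21.4%), and the stretch for Il6 (chr5:30012864-30012943, plus strand, GRCm38.p6), the member with the largest change, is shown with the match in capitals.
Il6: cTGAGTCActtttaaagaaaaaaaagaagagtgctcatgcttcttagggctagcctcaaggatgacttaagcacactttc
Il6, interleukin 6, was 131 and 201 in the 4 h and 6 h arrays, against 11.8 and 9.08 in the 0 h arrays (log2 change 3.98, SE 0.16, adjusted p = 1.4e-07, and 3.02 with intensities below 20 set to 20). Cxcl1, a neutrophil-attracting chemokine, was 185 and 121 at 4 and 6 h, against 39.3 and 31.1 at 0 h (log2 change 2.10, SE 0.17, adjusted p = 1.1e-05). Its highest level, 275, came at 1 h, whereas Il6 was highest at 8 h with 212. Tslp, a cytokine of barrier tissues, was 35.4 and 53.9 at 4 and 6 h, against 8.58 and 5.44 at 0 h (log2 change 2.68, SE 0.23, adjusted p = 1.6e-05, and 1.13 with intensities below 20 set to 20). The groups did not overlap in any of these 3, which the rule for the 15 largest rises required of Il6. Csf2, the granulocyte-macrophage growth factor GM-CSF, differed within the window, 151 and 21.3 at 4 and 6 h, against 3.99 and 4.04 at 0 h (log2 change 3.82, SE 0.21, adjusted p = 8.2e-07), and the log2 change was 1.5 with intensities below 20 set to 20. Ccl2, Ccl7 and Ccl20, chemokines for monocytes and lymphocytes, changed by 1.75, 1.16 and 1.91, and Nfkbia and Tnfaip3, which restrain NF-kappaB, by 1.62 and 1.29. Against unsynchronised cells, where 11% of all genes tested were higher at 4-6 h, 16 of the 18 were higher.

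The immediate early genes had passed their peak. Relative to 0 h, 12 of 29 measured members were higher and 6 lower at 4-6 h, with a median of 0.31. Against 0.5-1 h, where 13.2% of all genes were higher and 20.8% lower at 4-6 h, 1 was higher and 19 were lower, with a median log2 change of -1.43. Fos, the leucine zipper partner of Jun, was 10.3 and 17.2 in the 4 h and 6 h arrays, against 51.3 and 94.8 in the 0 h arrays (log2 change -2.39, SE 0.25, adjusted p = 6.0e-05, and -1.80 with intensities below 20 set to 20), after 541 at 0.5 h and 429 at 1 h. It was thus lower in the window than in starved cells. The zinc finger factor Egr1 was 228 and 276 at 4 and 6 h, against 505 and 511 at 0 h (log2 change -1.02, SE 0.14, adjusted p = 0.00034), after 1218 and 1709 at 0.5 and 1 h. Other members were still above their 0 h level. Ptgs2, the prostaglandin synthase COX-2, was 2815 and 2197 at 4 and 6 h, against 682 and 388 at 0 h (log2 change 2.27, SE 0.23, adjusted p = 4.4e-05), with its highest level of the course at 4 h. Klf10, a TGF-beta-inducible repressor, was 174 and 153 at 4 and 6 h, against 39.8 and 35.7 at 0 h (log2 change 2.11, SE 0.16, adjusted p = 8.2e-06) and had been at 320.3 at 2 h. Nr4a3, an orphan nuclear receptor, was 52.8 and 20.2 at 4 and 6 h, against 12.6 and 10.3 at 0 h (log2 change 1.52, SE 0.19, adjusted p = 0.00019, and 0.71 with intensities below 20 set to 20). Its level had been 143 at 1 h and 166 at 2 h, so it too was past its peak.

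Ribosome biogenesis was the largest group that moved one way. Of 97 measured genes for rRNA processing and ribosome assembly, 70 rose at 4-6 h and 0 fell by limma at an adjusted p under 0.05 (78 higher and 1 lower at an unadjusted p under 0.05), with a median log2 change of 0.63. The changes were modest and even, with medians of 0.62 at 4 h and 0.67 at 6 h, and 81 of the 97 had both window arrays above both 0 h arrays. One member fell without the second 0 h array, and 1 without the 6 h array. Many genes of this kind are known targets of Myc, which binds E-boxes. The E-box letters CACGTG, which read the same on both strands, were in 18 of 89 promoters of the list (20.2%), against 7.15% of all promoters. Stretches are shown for Nop2, an rRNA methyltransferase (chr6:125131786-125131865, plus strand), and Rpf2, a factor of large subunit assembly (chr10:40246980-40247059, minus strand), both on GRCm38.p6, as the eligible members with the largest changes that hold the letters before the start, with the E-box in capitals.
Nop2: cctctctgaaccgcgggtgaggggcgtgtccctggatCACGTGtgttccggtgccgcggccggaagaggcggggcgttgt
Rpf2: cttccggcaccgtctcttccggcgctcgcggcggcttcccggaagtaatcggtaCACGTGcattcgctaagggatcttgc
Nop2 changed by 0.94 and Rpf2 by 0.76. Rrp12, an export factor of pre-ribosomes, was 92.4 and 126 in the 4 h and 6 h arrays, against 37.8 and 33.9 in the 0 h arrays (log2 change 1.59, SE 0.13, adjusted p = 1.3e-05). Heatr1, needed for rRNA transcription and small subunit processing, was 233 and 194 at 4 and 6 h, against 78.1 and 82.4 at 0 h (log2 change 1.41, SE 0.15, adjusted p = 6.6e-05). The abundant nucleolar proteins changed less, with 969.5 and 853 at 4 and 6 h, against 588 and 601 at 0 h for nucleolin, Ncl (log2 change 0.61, SE 0.15, adjusted p = 0.010, and 0.52 with no call without the 4 h array), and 563 and 697 at 4 and 6 h, against 445 and 439 at 0 h for the snoRNP protein Nop56 (log2 change 0.50, SE 0.12, adjusted p = 0.0068, and 0.35 with no call without the 6 h array). Nolc1, a nucleolar chaperone of snoRNPs, was 317 and 316 at 4 and 6 h, against 145 and 179 at 0 h (log2 change 0.97, SE 0.16, adjusted p = 0.00087).

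Myc itself was 497 and 569.9 in the 4 h and 6 h arrays, against 299 and 269 in the 0 h arrays (log2 change 0.91, SE 0.18, adjusted p = 0.0027). All window values were above all 0 h values, and the highest level of the course was 676 at 1 h. Of the 10 measured members of the Myc network, 3 rose and 1 fell, compared with 15.2% and 22.9% of all genes tested. The one that fell was Mxd4, a Myc antagonist that pairs with Max, 144 and 160.4 at 4 and 6 h, against 214 and 253 at 0 h (log2 change -0.61, SE 0.17, adjusted p = 0.015). Mxd4 lost its call without the 4 h array (-0.54) or the second 0 h array (-0.49). Polr1b, the second largest subunit of RNA polymerase I, which makes rRNA, was 93.8 and 88.5 at 4 and 6 h, against 29.0 and 32.4 at 0 h (log2 change 1.57, SE 0.13, adjusted p = 1.4e-05). The list of RNA polymerases I and III had 9 of 29 members higher and 3 lower, with a median of 0.30. Among enzymes of nucleotide and polyamine synthesis, 11 of 32 rose and 2 fell (4 without the first 0 h array). Odc1, the rate-limiting enzyme of polyamine synthesis, was 788 and 699 at 4 and 6 h, against 260.4 and 323 at 0 h (log2 change 1.35, SE 0.16, adjusted p = 9.9e-05), highest at 4 h, and Ppat, which commits purine synthesis, was 149.7 and 121 at 4 and 6 h, against 58.1 and 60.4 at 0 h (log2 change 1.18, SE 0.16, adjusted p = 0.00032). Prps2, which makes the ribose donor of nucleotides, went the other way, 34.4 and 56.4 at 4 and 6 h, against 137 and 79.5 at 0 h (log2 change -1.25, SE 0.22, adjusted p = 0.0016). The E-box letters were in 14.7% of the promoters of this list.

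Other parts of the synthetic machinery moved less or not as a group. Of all genes tested, 15.2% rose and 22.9% fell. Of 29 translation factors 11 rose, among them Eif6, a factor of large subunit maturation, 428 and 539.5 at 4 and 6 h, against 155 and 215 at 0 h (log2 change 1.40, SE 0.21, adjusted p = 0.00058), and Eif4e, the cap-binding protein, at 0.65. Leaving out the first 0 h array, the 4 h array or the 6 h array took that count to 6, 7 and 6, and 1 member was lower without the first 0 h or the 6 h array. Chaperones and mitochondrial import factors had 14 of 33 higher and 1 lower (0 without the 4 h array), but 4, 8 and 8 higher without the 4 h, the 6 h or the first 0 h array. Timm10, a chaperone of the mitochondrial intermembrane space, was 68.7 and 64 at 4 and 6 h, against 32.3 and 34.5 at 0 h (log2 change 0.99, SE 0.14, adjusted p = 0.00043). Of 34 importins, exportins and nucleoporins 10 rose, led by Rcc1, the nucleotide exchange factor of Ran (1.12), and the importin Ipo5 (1.10). Of 32 cytosolic ribosomal proteins 4 rose, with a median of 0.06, of which Rpl30, Rpl37 and Rps23 had both 0 h arrays under 20 and Rpl5 was 55.3 and 35.9 at 4 and 6 h, against 20.3 and 30.9 at 0 h. The count was 2 without the 4 h array, while 8 rose and 1 fell without the second 0 h array. Of 28 proteasome subunits 0 changed by limma, also at an unadjusted p under 0.05, with a median of 0.03, though 2 were higher and 2 lower without the second 0 h array and 1 was higher without the first. Aminoacyl-tRNA synthetases were split, with 2 of 19 higher and 2 lower, and their median was -0.32 in the 4 h array and 0.32 in the 6 h array. Both lower calls were lost without the 4 h array, though Eprs, one of the 2, then changed by -0.46 compared with -0.41 with all arrays. Without the second 0 h array Eprs (-0.35) and the other, Mars1 (-0.37), lost their calls too, as did Eprs without the 6 h array (-0.37). Of the 19, 4 were lower without either the 6 h or the first 0 h array, and 1 was higher in both of those cases.

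**Figure D3:**
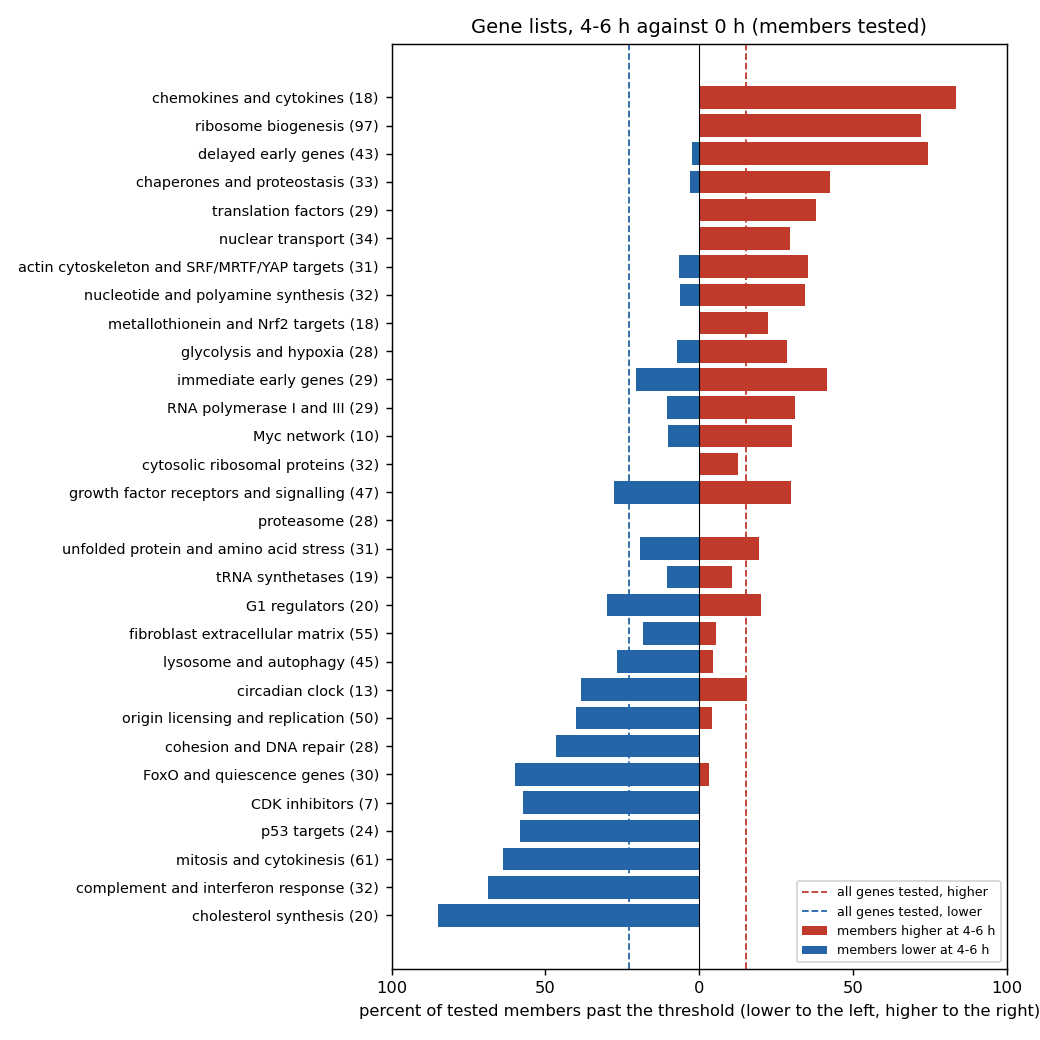
Percent of the measured members of 30 gene lists that were higher (red, to the right) or lower (blue, to the left) at 4-6 h than at 0 h, with the number of measured members in parentheses. Dashed lines mark the shares over all 9967 genes, 15.2% higher and 22.9% lower.

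Of 20 measured regulators of G1, 4 rose and 6 fell, shares near the 15.2% and 22.9% of all genes tested, and 3 fell without the 4 h array. E2f4, the main repressor E2F of resting cells, was 318 and 373 in the 4 h and 6 h arrays, against 139 and 151 in the 0 h arrays (log2 change 1.25, SE 0.17, adjusted p = 0.00033), with its highest level at 6 h. Cdc25a, a phosphatase that activates Cdk2, was 124 and 82.0 at 4 and 6 h, against 41.4 and 44.5 at 0 h (log2 change 1.23, SE 0.16, adjusted p = 0.00024), and Cdk6, a cyclin D kinase, was 235 and 338 at 4 and 6 h, against 133 and 167 at 0 h (log2 change 0.92, SE 0.18, adjusted p = 0.0028). Rb1, the retinoblastoma protein, fell to 65.1 and 52.8 at 4 and 6 h, against 153 and 109 at 0 h (log2 change -1.14, SE 0.18, adjusted p = 0.00070). Its relatives Rbl2 and Rbl1 changed by -0.82 and -0.63. Cdk4 was 1056 and 1167 at 4 and 6 h, against 1460 and 1467 at 0 h (log2 change -0.40, SE 0.12, adjusted p = 0.022), and -0.33 with no call without the 4 h array. Ccnd1, cyclin D1, was 412 and 557 at 4 and 6 h, against 413 and 570.2 at 0 h, and the spread of both pairs covered any difference (log2 change -0.02, SE 0.16, adjusted p = 0.94). Its sign depended on the setting, with 0.029 when arrays were centred on their medians. Of 7 inhibitors of cyclin-dependent kinases 4 fell and the median was -0.61. Cdkn1b, p27, was 44.5 and 46.6 at 4 and 6 h, against 67.4 and 106 at 0 h (log2 change -0.90, SE 0.20, adjusted p = 0.0057), and its lowest level, 31.2, had come at 2 h. Cdkn2c, p18, was 24.7 and 21.5 at 4 and 6 h, against 59.4 and 49.1 at 0 h (log2 change -1.23, SE 0.22, adjusted p = 0.0016).

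The 15 largest falls likewise held genes of several kinds. Arhgap20, a GTPase activating protein, was 23.7 and 18.3 in the 4 h and 6 h arrays, against 597 and 457 in the 0 h arrays, 25.1-fold lower at 4-6 h (log2 change -4.65, SE 0.16, adjusted p = 1.1e-07). Its level was 493 at 1 h and 243 at 2 h, and it stayed at 19.6 at 8 h. Lgr5, a receptor for R-spondins in Wnt signalling, was 77.8 and 14.8 at 4 and 6 h, against 850.0 and 666 at 0 h (log2 change -4.47, SE 0.27, adjusted p = 1.6e-06), and most of the decline fell between 2 h (414) and 6 h. Osr2, a zinc finger factor of mesenchyme and palate development, was 34.5 and 29.3 at 4 and 6 h, against 428 and 358 at 0 h (log2 change -3.62, SE 0.17, adjusted p = 4.1e-07). Adamts5, an aggrecan-cleaving protease, was 106 and 53.9 at 4 and 6 h, against 679 and 685 at 0 h (log2 change -3.17, SE 0.12, adjusted p = 1.4e-07), and its relative Adamts1 was 87.0 and 126 at 4 and 6 h, against 474 and 687 at 0 h (log2 change -2.45, SE 0.21, adjusted p = 1.4e-05). Gas1, named as a growth arrest-specific gene, was 58.3 and 100.3 at 4 and 6 h, against 391.5 and 520.3 at 0 h (log2 change -2.56, SE 0.23, adjusted p = 1.8e-05).

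Ldb2 (a LIM domain-binding cofactor), Cldn1 (a tight junction protein), Rtl3, Zfhx4 (a homeobox and zinc finger factor), Lpar4 (a lysophosphatidic acid receptor), Lrrtm1, Tbxa2r (the thromboxane receptor), Arhgap28, Lpin1 (a phosphatidate phosphatase) and Zfp521 (a zinc finger factor of progenitor cells) made up the rest of the 15, with log2 changes of -3.39, -3.35, -3.26, -3.13, -3.09, -3.06, -2.92, -2.85, -2.66 and -2.58. All 10 were lower in both window arrays than in both 0 h arrays, which the rule for naming the 15 required. With intensities below 20 set to 20 the changes were -1.98 for Tbxa2r, -2.48 for Lrrtm1, -2.83 for Cldn1 and -3.16 for Rtl3. Under that setting Arhgap28 and Lpin1 changed by -2.62 and -2.46, and Arhgap20 and Lgr5 by -4.58 and -4.25. Unsynchronised cells also held little of several of these genes, with 23 and 20.0 for Arhgap20 and 25.2 and 32.9 for Osr2.

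Genes of FoxO signalling and quiescence fell. Of 30 measured members 18 fell and 1 rose at 4-6 h, with a median of -0.57. The FoxO letters GTAAACA, searched on both strands, were in 4 of 32 promoters of the list (12.5%), compared with 3.65% of all promoters. The stretch of Txnip (chr3:96557799-96557878, plus strand, GRCm38.p6), the eligible called member with the largest change that holds them before the start, is shown with the match in capitals.
Txnip: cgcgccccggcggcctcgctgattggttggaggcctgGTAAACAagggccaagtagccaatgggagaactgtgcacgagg
Txnip, which binds thioredoxin and limits glucose uptake, was 98.5 and 268 in the 4 h and 6 h arrays, against 350.0 and 338 in the 0 h arrays (log2 change -1.08, SE 0.16, adjusted p = 0.00045). Its lowest level was 43.9 at 2 h, and the change lost its call without the 4 h array, at -0.36. Irs1, the insulin receptor substrate, was 27.6 and 67.6 at 4 and 6 h, against 250.3 and 259 at 0 h (log2 change -2.56, SE 0.17, adjusted p = 2.6e-06). Sestrins, stress-induced inhibitors of mTORC1, were lower in all 3 forms. Sesn2 was 63.6 and 197 at 4 and 6 h, against 471 and 388 at 0 h (log2 change -1.94, SE 0.14, adjusted p = 4.2e-06), Sesn3 was 68.0 and 44.7 at 4 and 6 h, against 193 and 202 at 0 h (log2 change -1.84, SE 0.15, adjusted p = 1.2e-05) and Sesn1 was 23.2 and 13.0 at 4 and 6 h, against 45.4 and 47.3 at 0 h (log2 change -1.42, SE 0.19, adjusted p = 0.00027). With intensities below 20 set to 20 Sesn1 changed by -1.11. Ccng2, cyclin G2, was 32.3 and 22.1 at 4 and 6 h, against 31.3 and 48.6 at 0 h and missed the threshold (log2 change -0.55, SE 0.20, adjusted p = 0.051). The member that rose was Fbxo32, the ubiquitin ligase atrogin-1, at 0.88, and 2 rose without the 6 h array.

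Targets of p53, which share members such as Sesn2 with other lists here, had 14 of 24 members lower, with a median of -0.58 (limma; 0 higher, also at an unadjusted p under 0.05, and 1 higher without the 4 h array). Trp53inp1, which promotes p53 activity, was 110.2 and 79.5 at 4 and 6 h, against 465 and 465 at 0 h (log2 change -2.31, SE 0.27, adjusted p = 1.0e-04). Mdm2, the ubiquitin ligase of p53, changed by -0.64, Fas, a death receptor, by -0.61, and Gtse1, which is also a mitotic gene, by -1.24.

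Cholesterol synthesis had the largest share of lower genes among the 30 lists. Of 20 measured members 17 fell, all 20 had both window arrays below both 0 h arrays, and the median log2 change was -0.82 (limma; at an unadjusted p under 0.05, 20 were lower and 0 higher). The list's median change was -0.77 at 4 h and -1.01 at 6 h, the lowest of the course, after -0.04 at 2 h. The pathway is driven by SREBP2. The sterol element letters TCACNCCAC, searched on both strands, were in 1 of 19 promoters (5.26%), compared with 1.24% of all promoters. That promoter belongs to Hmgcs1, HMG-CoA synthase (chr13:119690178-119690257, plus strand, GRCm38.p6), shown with the match in capitals.
Hmgcs1: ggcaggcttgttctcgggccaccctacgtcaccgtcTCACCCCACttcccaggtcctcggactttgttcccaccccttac
Hmgcs1 was 369 and 367 in the 4 h and 6 h arrays, against 739 and 963 in the 0 h arrays (log2 change -1.2, SE 0.16, adjusted p = 0.00024), after 1303 at 1 h, its highest level. Mvk, mevalonate kinase, was 43.0 and 65.8 at 4 and 6 h, against 188 and 173 at 0 h (log2 change -1.76, SE 0.19, adjusted p = 7.0e-05). Lss, lanosterol synthase, was 55.9 and 90.1 at 4 and 6 h, against 227 and 271 at 0 h (log2 change -1.81, SE 0.16, adjusted p = 1.8e-05). Fdft1, squalene synthase, was 347 and 400.5 at 4 and 6 h, against 937 and 862 at 0 h (log2 change -1.27, SE 0.15, adjusted p = 0.00011). The fall therefore covered early and late steps of the pathway.

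Interferon-stimulated and complement genes were lower. Of 32 measured members 22 fell, with a median of -0.91, and 14 fell without the 4 h array. The letters GAAANNGAA of interferon response elements, searched on both strands, were in 10 of 30 promoters of the list (33.3%), compared with 8.56% of all promoters. Stretches are shown for Ifit1 (chr19:34640769-34640848, plus strand), which holds 3 matches before the start, and Stat2 (chr10:128270248-128270327, plus strand) on GRCm38.p6, the eligible called members with the largest changes that hold a match, with the match nearest to the start in capitals.
Ifit1: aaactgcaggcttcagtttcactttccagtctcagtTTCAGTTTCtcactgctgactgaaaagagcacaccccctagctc
Stat2: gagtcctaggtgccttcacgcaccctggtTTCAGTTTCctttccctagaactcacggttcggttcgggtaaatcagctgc
Ifit1, an antiviral RNA-binding protein, was 68.2 and 84.4 in the 4 h and 6 h arrays, against 401 and 377 in the 0 h arrays (log2 change -2.36, SE 0.44, adjusted p = 0.0020). Stat2, a transcription factor of interferon signalling, changed by -1.66. Usp18, a feedback inhibitor of interferon signalling, was 41.4 and 127 at 4 and 6 h, against 354 and 270.2 at 0 h (log2 change -2.10, SE 0.38, adjusted p = 0.0016) and lost its call without the 4 h array, at -1.28. The immunoproteasome subunits Psmb8 and Psmb10 and the peptide transporter Tap1 changed by -0.79, -1.0 and -1.61. The list's median stayed low after the window, at -0.69 at 8 h, -0.97 at 10 h and -0.91 at 24 h.

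Genes of mitosis and DNA replication lay below the level of starved cells. Of 61 measured genes of mitosis and cytokinesis 39 fell at 4-6 h and 51 had both window arrays below both 0 h arrays, with a median of -0.80 (limma; 0 higher, also at an unadjusted p under 0.05). The CHR letters TTTGAA, bound by DREAM complexes in mitotic promoters and searched on both strands, were in 37 of 54 promoters of the list (68.5%), compared with 17.9% of all promoters. Stretches are shown for Mki67 (chr7:135716435-135716514, minus strand), with a second match in lower case, and Ccnb2 (chr9:70421679-70421758, minus strand) on GRCm38.p6, the eligible called members with the largest changes that hold the letters before the start.
Mki67: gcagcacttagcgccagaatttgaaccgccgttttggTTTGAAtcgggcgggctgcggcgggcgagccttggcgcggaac
Ccnb2: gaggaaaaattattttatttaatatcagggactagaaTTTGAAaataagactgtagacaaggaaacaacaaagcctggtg
Mki67, the proliferation antigen Ki-67, was 68.3 and 95.7 in the 4 h and 6 h arrays, against 355 and 202 in the 0 h arrays (log2 change -1.73, SE 0.28, adjusted p = 0.00085), and the 0 h duplicates themselves were far apart. Ccnb2, cyclin B2, was 41.0 and 57.9 at 4 and 6 h, against 193 and 118 at 0 h (log2 change -1.63, SE 0.23, adjusted p = 0.00035). Bub1, a spindle checkpoint kinase, was 14.3 and 15.7 at 4 and 6 h, against 80.7 and 44.6 at 0 h (log2 change -2.0, SE 0.29, adjusted p = 0.00043, and -1.585 with intensities below 20 set to 20). Both window arrays of these 3 genes lay below both 0 h arrays. Ccnb1, cyclin B1, was 33.3 and 53 at 4 and 6 h, against 90.4 and 82.6 at 0 h (log2 change -1.04, SE 0.16, adjusted p = 0.00062), and Top2a, topoisomerase II alpha, was 67.7 and 62.2 at 4 and 6 h, against 154 and 143 at 0 h (log2 change -1.19, SE 0.19, adjusted p = 0.00087). Cdk1, the mitotic kinase, was 73.1 and 73.8 at 4 and 6 h, against 106 and 91.2 at 0 h, close to the threshold (log2 change -0.42, SE 0.15, adjusted p = 0.045), and it lost the call without the first 0 h array (-0.31), the 4 h array (-0.42) or the 6 h array (-0.43). Between 33 and 41 members fell when any one of the 4 arrays was left out. The first 0 h array was higher than the second by a median of 0.27 over this list, compared with -0.01 over all genes.

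Of 50 measured genes of origin licensing and replication 20 fell and 2 rose, with a median of -0.41, and 9 fell without the 4 h array. E2F letters TTTGGCGC or TTTCCCGC, searched on both strands, were in 14 of 52 promoters of the list (26.9%), compared with 1.56% of all promoters. The stretch of Mcm7 (chr5:138172005-138172084, minus strand, GRCm38.p6), a subunit of the replicative helicase, is shown with the match in capitals.
Mcm7: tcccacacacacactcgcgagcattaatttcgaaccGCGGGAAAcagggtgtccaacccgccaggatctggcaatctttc
Mcm7 changed by -0.60. Prim1, the catalytic subunit of primase, was 13.0 and 20.5 at 4 and 6 h, against 71.3 and 39.6 at 0 h (log2 change -1.70, SE 0.26, adjusted p = 0.00063, and -1.39 with intensities below 20 set to 20). Tk1, thymidine kinase, was 32.5 and 41.3 at 4 and 6 h, against 98.4 and 77.0 at 0 h (log2 change -1.25, SE 0.17, adjusted p = 0.00026). Cdt1, a loader of the MCM helicase in origin licensing, was among the 2 that rose, 72.8 and 111 at 4 and 6 h, against 46.1 and 42.1 at 0 h (log2 change 1.03, SE 0.13, adjusted p = 0.00021), with Orc2, an origin recognition subunit, at 0.69. In the list of cohesion and DNA repair genes 13 of 28 fell, with a median of -0.51. Many of these were dim, and 4 fell with intensities below 20 set to 20. Chek2, the checkpoint kinase, was 14.9 and 13.6 at 4 and 6 h, against 39.5 and 42.9 at 0 h (log2 change -1.53, SE 0.15, adjusted p = 2.7e-05, and -1.04 with intensities below 20 set to 20).

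Growth factor ligands and receptors went both ways, with 14 of 47 higher and 13 lower, compared with 15.2% and 22.9% of all genes tested. The share lower was near that of all genes tested. Inhba, the activin A chain, was 963 and 1008 in the 4 h and 6 h arrays, against 164 and 154 in the 0 h arrays (log2 change 2.63, SE 0.16, adjusted p = 1.5e-06), and its antagonist Fst, follistatin, was 536 and 932 at 4 and 6 h, against 138 and 143 at 0 h (log2 change 2.33, SE 0.13, adjusted p = 1.0e-06). Pdgfb, the PDGF B chain, was raised briefly, 118 and 27.1 at 4 and 6 h, against 9.15 and 8.28 at 0 h (log2 change 2.70, SE 0.15, adjusted p = 8.2e-07, and 1.5 with intensities below 20 set to 20), and back at 10.7 at 8 h. The HGF receptor Met and the ligands Fgf2 and Tgfb1 changed by 1.77, 1.74 and 1.49. On the lower side stood, beside Lgr5, Bmp4 (-1.67), the TGF-beta receptor Tgfbr2 (-1.08) and Pdgfrb (-0.45). Pdgfra, the other PDGF receptor, was 1073 and 947 at 4 and 6 h, against 714 and 809 at 0 h and missed the threshold (log2 change 0.41, SE 0.16, adjusted p = 0.072).

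Of 31 actin cytoskeleton and SRF, MRTF and YAP target genes 11 rose and 2 fell (1 without the 4 h array), with a median of 0.36. Cnn1, calponin, was 564 and 482 in the 4 h and 6 h arrays, against 132 and 138 in the 0 h arrays (log2 change 1.95, SE 0.17, adjusted p = 1.8e-05), and Tagln2, a related actin-binding protein, was 522 and 722 at 4 and 6 h, against 298 and 328 at 0 h (log2 change 0.98, SE 0.16, adjusted p = 0.0011). The matrix genes as a list stayed near the level of all genes, with 3 of 55 higher and 10 lower and a median of -0.09. Tnc, the adhesion-modulating glycoprotein tenascin C, was 2933 and 3061 at 4 and 6 h, against 1143 and 1168 at 0 h (log2 change 1.38, SE 0.12, adjusted p = 1.8e-05), and Cd44, the hyaluronan receptor, was 178 and 194 at 4 and 6 h, against 58.4 and 46.0 at 0 h (log2 change 1.84, SE 0.15, adjusted p = 1.3e-05). The number of lower matrix genes was 5 without the 6 h array, and the number higher was 5 without the second 0 h array. Collagen I did not pass the test, with a change of -0.12 for Col1a1 (SE 0.12, adjusted p = 0.47).

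Metabolic and stress genes gave mixed counts, to be read beside the 15.2% higher and 22.9% lower of all genes tested. In glycolysis and hypoxia 8 of 28 rose and 2 fell (1 without the 4 h array and 1 without the 6 h array). Hk2, the inducible hexokinase, was 182 and 137 in the 4 h and 6 h arrays, against 22.9 and 41.5 in the 0 h arrays (log2 change 2.35, SE 0.23, adjusted p = 3.3e-05), and the phosphofructokinase Pfkp was 156 and 147 at 4 and 6 h, against 60.9 and 91.2 at 0 h (log2 change 1.02, SE 0.19, adjusted p = 0.0018). Ndrg1, a stress and hypoxia gene, was 614 and 429 at 4 and 6 h, against 165 and 202 at 0 h (log2 change 1.49, SE 0.19, adjusted p = 0.00022). Of 18 metallothioneins and Nrf2 targets 4 rose, led by Srxn1, sulfiredoxin, 426 and 216 at 4 and 6 h, against 87.1 and 80.4 at 0 h (log2 change 1.86, SE 0.25, adjusted p = 0.00026), and 2 rose and 1 fell without the 4 h array. Of 31 genes of unfolded protein and amino acid stress 6 rose and 6 fell, shares near those of all genes tested. The 6 higher members are known for roles in endoplasmic reticulum folding, among them Sdf2l1 (1.2, and 0.64 with no call without the 6 h array), Dnajb9 (1.00) and Hspa5 (0.47), and the 6 lower ones included Trib3 (-1.91), Chac1 (-0.99) and Ddit3 (-0.69). Without the 4 h array 3 members were lower. Of 45 lysosome and autophagy genes 12 fell, a share near that of all genes tested, and 2 rose. Without the 6 h array 7 fell, and without the second 0 h array 6 rose. In the circadian clock 5 of 13 fell (3 without the 4 h array) and 2 rose. Dbp, an output gene, was 39.2 and 30.8 at 4 and 6 h, against 88.6 and 180.2 at 0 h (log2 change -1.86, SE 0.29, adjusted p = 0.00072), and Arntl, the clock activator Bmal1, was 768 and 402 at 4 and 6 h, against 200.1 and 253 at 0 h (log2 change 1.30, SE 0.16, adjusted p = 0.00013).

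Between the 2 arrays of the window 325 genes (3.26%) differed, 253 (2.54%) higher and 72 (0.722%) lower in the 6 h array, a split of 142 and 115 when each array was centred on its median. The SD between the 4 h and 6 h arrays was 0.318, against 0.286 between the 0 h duplicates and 0.156 to 0.199 between the other 4 pairs, and 2061 genes had an unadjusted p under 0.05. Csf2 was 21.3 at 6 h and 151 at 4 h (log2 change -2.82, SE 0.29, adjusted p = 0.0022), Pdgfb 27.1 and 118 (log2 change -2.13, SE 0.21, adjusted p = 0.0022), Tnfsf18, a TNF family ligand, 9.92 and 49.5 (log2 change -2.32, SE 0.24, adjusted p = 0.0022, and -1.31 with intensities below 20 set to 20), and Hspa1b, an inducible heat shock protein, 44.9 and 219 (log2 change -2.28, SE 0.38, adjusted p = 0.017). Lgr5 was 14.8 at 6 h and 77.8 at 4 h (log2 change -2.39, SE 0.38, adjusted p = 0.015), and the difference was -1.96 with no call (adjusted p = 0.069 by limma) with intensities below 20 set to 20. Higher at 6 h were Kcnn3, a calcium-activated potassium channel, 63.7 and 11.3 (log2 change 2.50, SE 0.23, adjusted p = 0.0022, and 1.67 with intensities below 20 set to 20), Tubb3, a beta tubulin, 145 and 31.2 (log2 change 2.22, SE 0.25, adjusted p = 0.0028), and Ehd3, an endocytosis protein, 525 and 119 (log2 change 2.14, SE 0.34, adjusted p = 0.015). Dkk2, a secreted Wnt regulator, and Ccdc9b differed by 2.07 and 2.07. With intensities below 20 set to 20 Hspa1b also lost its call, at an unchanged -2.28. For Tubb3, Dkk2 and Ccdc9b the 4 h value was the lowest of the whole course, and over the window as one they did not pass the threshold against 0 h.

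**Figure D4:**
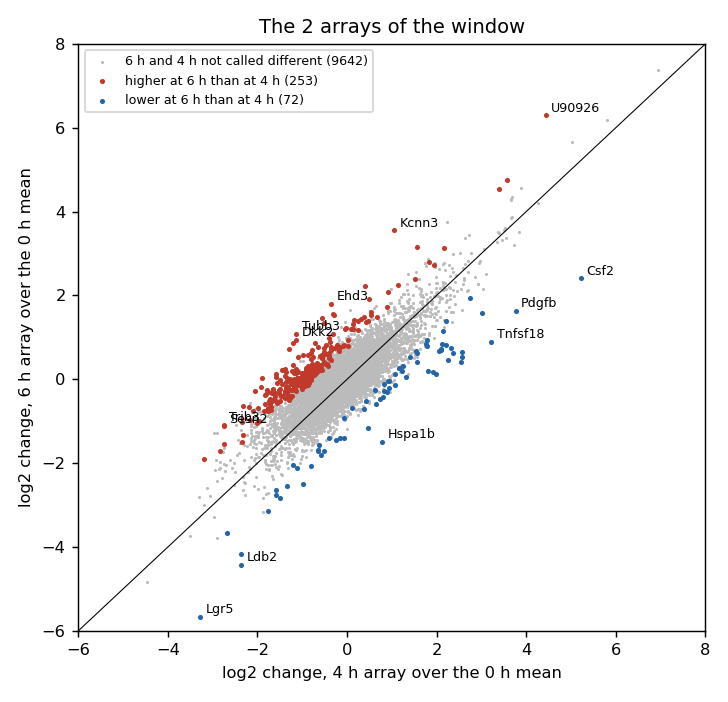
Log2 change of each gene from the 0 h mean in the 4 h array (x axis) and in the 6 h array (y axis), with the line of equal change. The 253 genes higher at 6 h than at 4 h are red and the 72 lower are blue. Csf2, Pdgfb and Tnfsf18 lie far below the line and Kcnn3, Tubb3 and Ehd3 above it.

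Compared with the first hour after serum, the window was a different state. Against 0.5-1 h 1314 genes (13.2%) were higher at 4-6 h and 2072 (20.8%) lower, and 1020 and 1274 without the 4 h array. The 4-6 h arrays are shared with the comparison against 0 h. Ribosome biogenesis had 70 of 97 members higher and a median of 0.67, delayed early genes 29 of 43 higher and 6 lower with a median of 0.91, and cholesterol synthesis 14 of 20 lower with a median of -0.91. Sema7a was 384 and 369.9 at 4 and 6 h, against 19.2 and 16.5 at 0.5 and 1 h (log2 change 4.40, SE 0.13, adjusted p = 4.4e-08). Myc, by contrast, did not pass the test (log2 change 0.09, SE 0.18, adjusted p = 0.72).

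Few genes set the window apart from mid G1, and those calls leaned on single arrays. Against 8-10 h 424 genes differed (4.25%), of which 124 (1.24%) were higher and 300 (3.01%) lower at 4-6 h, and 187 and 163 with centred arrays. Without the 4 h array 1 gene was higher and 0 were lower (limma; 1413 genes had an unadjusted p under 0.05), without the 10 h array 9 and 14, and without the 6 h array 261 and 829. Replication genes were lower than at 8-10 h in 26 of 50 cases, with a median of -0.69. Prim1 was 13.0 and 20.5 at 4 and 6 h, against 39.8 and 60.5 at 8 and 10 h (log2 change -1.58, SE 0.26, adjusted p = 0.012). In all, 71 genes were higher at 4-6 h than at 0 h, 0.5-1 h and 8-10 h alike and 160 were lower. The 5 higher ones with the largest fitted change from 0 h were Sema7a, Csf2, Il1a, Aqp3 (a water and glycerol channel) and Dusp9 (a MAP kinase phosphatase), of which all but Sema7a had both 0 h arrays under 20, so that their order depends on the background. Aqp3 was 69.8 and 73.3 at 4 and 6 h, against 43.1 and 18.6 at 8 and 10 h (log2 change 1.34, SE 0.20, adjusted p = 0.0077), and Dusp9 was 128 and 121, against 69.0 and 69.5 (log2 change 0.84, SE 0.19, adjusted p = 0.037). The 5 lower ones were Arhgap28, Lpin1, Zfp521, Irs1 and Pcdh18, a protocadherin, which was 77.1 and 126 at 4 and 6 h, against 184 and 189 at 8 and 10 h (log2 change -0.92, SE 0.13, adjusted p = 0.0077).

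Against unsynchronised cells 1094 genes (11%) were higher at 4-6 h and 1550 (15.6%) lower, a split of 1432 and 1257 with centred arrays. Without the 4 h array 815 were higher and 875 lower, without the first unsynchronised array 616 and 907, and without the second 687 and 902. Cell cycle genes had the largest shares of lower members among the 30 lists. All but 1 of the 61 mitosis genes were lower, with a median of -2.50, as were 46 of 50 replication genes (median -1.65) and 28 of 28 repair genes (median -1.80). Ccnb1 was 33.3 and 53 at 4 and 6 h, against 277 and 290.4 in unsynchronised cells (log2 change -2.75, SE 0.16, adjusted p = 2.2e-06). Ribosome biogenesis gave few calls, with 4 of 97 higher and 4 lower and a median of -0.08. Of 55 matrix genes 26 were higher at 4-6 h, and so were 8 of 14 fibroblast markers and 8 of 12 macrophage and leukocyte markers, whose part in these differences was not tested. Serpinb2 was 807 and 1076 at 4 and 6 h, against 54.0 and 26.9 in unsynchronised cells (log2 change 4.61, SE 0.34, adjusted p = 5.4e-06).

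**Figure D5:**
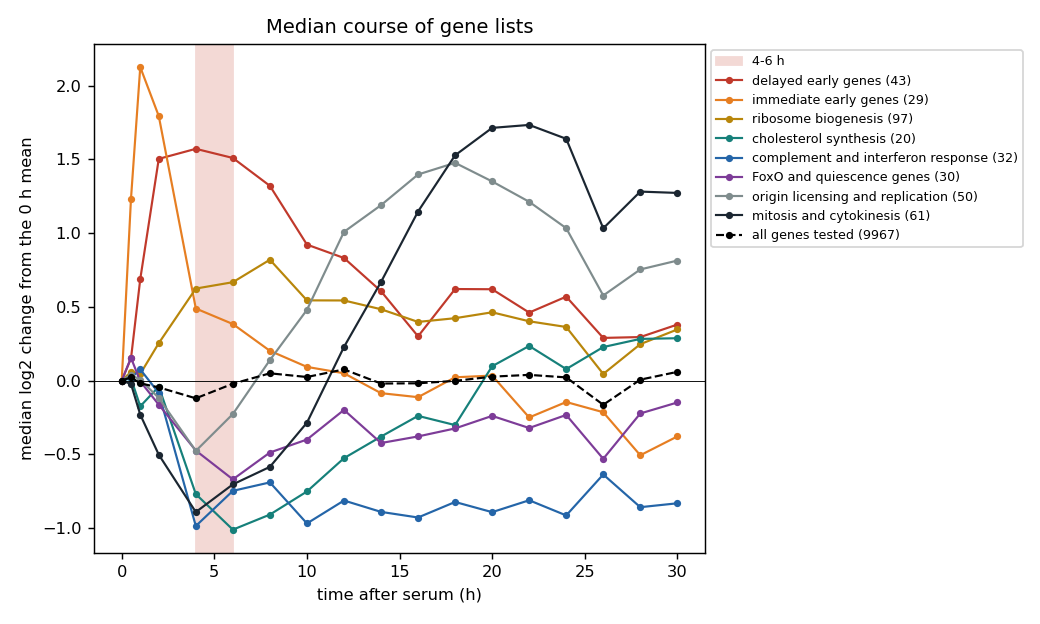
Median log2 change from the 0 h mean over the members of 8 gene lists and over all genes tested, at the 18 times after serum, with the 4-6 h window shaded. Immediate early genes were highest at 1 h with a median of 2.12, delayed early genes at 4 h with 1.57, cholesterol synthesis was lowest at 6 h with -1.01, and the mitosis list was lowest at 4 h with -0.89.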

How the data were processed

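RNA of MEF was hybridised to 24 Affymetrix Mouse Gene ST arrays. The authors normalised the arrays with RMA in oligo and checked them with ArrayQualityMetrics (no version is named). Intensities were deposited on a linear scale, from 1.74 to 6335, under a header that speaks of log2, and both deposited tables held the same values. The platform annotation gave 1 gene for 23521 of 41345 probe sets, and 84 more were named from a supplementary table. Probe sets with several genes (1820) or no name (15920) were kept out of the gene tests.

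Values were log2 transformed in Python 3.11.15 (pandas 2.3.3) and tested with limma 3.58.1 in R 4.3.3. One mean was fitted to each of 19 groups, with 5 residual and 5.58 prior degrees of freedom, so that the single arrays at 4 h and 6 h were assumed to vary like the 5 duplicated groups. Genes needed an intensity of 20 in 2 arrays and were represented by their brightest probe set, and p-values were adjusted by Benjamini-Hochberg over 9967 genes with a threshold of 0.05. The contrast was the mean of 4 h and 6 h minus that of 0 h on the log2 scale. SE is the moderated standard error. The script was tested on simulated data.

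The arrays and the 30 gene lists were chosen with earlier results of these data known, and lists share members. Named were the 15 largest changes in each direction with the arrays on one side and a mean of at least 50, up to 4 members of each list, the 5 largest in each direction between 6 h and 4 h and among genes that passed against 0 h, 0.5-1 h and 8-10 h alike, and a fixed set of cell cycle, growth and fibroblast genes, of which Fosl1 was not among the tested genes. Some genes that the rule names are not reported here. Further list members given by their log2 change were picked after their values were seen. Alternatives were other minimum intensities, scalings, variance models and probe set choices, only the 4 arrays, a replicate block, and leaving out each array. Motif letters were searched in RefSeq windows of GRCm38.p6, the interferon letters being added after the other lists, and those of the serum response element were not searched. Promoters on chr18 were counted but left out when stretches were chosen. No genome coordinates other than these were used.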

Additional observations from a re-analysis of the deposited data

Results flagged for a closer look

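In 24 of the 162 named genes the change from 0 h differed between 6 h and 4 h by the test of that difference (limma, adjusted p under 0.05), each time with 1 array on either side. The share over all genes tested was 3.26%. The 2 are not comparable, since the 5 largest such differences in each direction, Csf2 and Lgr5 included, were named for passing this test. Among the largest rises of the window, the log2 difference of 6 h minus 4 h was 1.86 for U90926, 1.18 for Mmp9 and 1.14 for Gjb2, and it was -2.82 for Csf2. Among the largest falls it was -2.39 for Lgr5, -2.06 for Ldb2, -1.80 for Rtl3 and -0.98 for Adamts5. With intensities below 20 set to 20 Lgr5 (-1.96) and Rtl3 (-1.60) lost the call. So did Mmp9, Trib3, Arntl and Hspa1b, though their differences were unchanged. A further 5 genes that lay below their 0 h level at 4 h were nearer to it at 6 h, with 1.67 for Trib3, 1.63 for Sesn2, 1.44 for Txnip, 1.29 for Irs1 and 1.14 for the methionyl-tRNA synthetase Mars1. Further differences were -1.38 for Nr4a3, -2.13 for Pdgfb, 0.80 for Fst and -0.94 for Arntl.

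Other genes named for this difference had 2.50 for Kcnn3, 2.22 for Tubb3, 2.14 for Ehd3, 2.07 for Dkk2 and 2.07 for Ccdc9b, and -2.32 for Tnfsf18 and -2.28 for Hspa1b. The lower overall level of the 4 h array is part of every such value. The part of that array's quality in them was not tested.

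Among 3178 probe sets past the minimum intensity that have no gene name here, 12.2% passed the threshold at 4-6 h against 0 h, 203 higher and 185 lower, compared with 31.2% of 10326 probe sets with 1 gene and 19.8% of 678 with several. No group held 4 or more arrays, so single arrays were not tested as outliers within a group.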

How the results depend on the processing

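Against 0 h, the counts of higher and lower genes were 521 and 696 when only the 4 arrays were fitted and 478 and 654 with at least a 2-fold change. They ran from 1201 to 1722 and from 1421 to 2414 when each array was left out, and stayed within 1.5 times under other minimum intensities, scalings, variance models and probe set choices. Centred arrays gave 142 genes higher and 115 lower at 6 h than at 4 h, and 187 higher and 163 lower at 4-6 h than at 8-10 h. Leaving out each array gave 960 to 1045 higher and 1274 to 2011 lower against 0.5-1 h, 1 to 261 and 0 to 829 against 8-10 h, and 616 to 931 and 875 to 1687 against unsynchronised cells.

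Of 2260 values for the 162 named genes, 2136 kept their direction and side of the threshold, 98 lost the call, 10 gained it and 16 turned. Most turned values belong to genes whose 4 h and 6 h arrays differ. Without single arrays Mars1 ran from -1.10 (without 6 h) to 0.041 (without 4 h), Ccnd1 from -0.25 to 0.21, Tubb3 from -1.14 to 1.08, Ehd3 from -0.35 to 1.80, Dkk2 from -1.13 to 0.94, Ccdc9b from -1.21 to 0.86 and Hspa1b from -1.49 to 0.79. Centring gave 0.029 for Ccnd1 and 0.019 for Tubb3, renewed quantile normalization gave 0.070 for Tubb3, and Ccdc9b was 0.24 with intensities below 20 set to 20. The causes were not tested.

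With the replicate number of the duplicated groups as a replicate block, 1479 genes were higher and 2199 lower, and none of the 60 list counts moved by over 1.5 times. Of the 900 list counts over all alternatives 133 so moved, among them 39 of 60 with only the 4 arrays, 38 with at least a 2-fold change, 16 without the 4 h array, 10 without the 6 h array, and 7 or 8 when either 0 h array was dropped. The 4 h and 6 h arrays carry no pairing with those at 0 h. Limits are the single array per time, the dim probe sets under 20 whose changes depend on the background, the low 4 h array and the spread of the 0 h duplicates.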
